A study of Mus musculus with 9 samples.

Results

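The genes described here are 43 genes of nucleotide sugar and sialic acid metabolism, chosen by name from textbook roles in the synthesis, transport and removal of activated sugars. The choice was made with earlier results of these data known. The genes were 43 of 53380 gene rows counted in 9 RNA-seq libraries of mouse T cell leukemia cells (T-ALL, an acute lymphoblastic leukemia). Of the 43, 41 passed the filter on low counts that kept 14098 genes. The T-ALL cells were derived from tumors of EμSRα-tTA/tet-O-MYC mice on the FVB/N background and were grown in culture, where doxycycline was added to the medium. All groups carry a human MYC transgene whose tet-O promoter is driven by the tTA transactivator, itself under the Ig heavy-chain enhancer (Eμ) and the SRα promoter, and doxycycline shuts it down. Groups of 3 libraries each were collected at 48 hours: mock-treated cells, called MYC on, cells given doxycycline at 20 pg/mL, called MYC intermediate, and cells given 500 pg/mL, called MYC off. The labels do not say whether the libraries of a group were separate cultures or whether the cells were 1 clone, so the errors and p-values below measure only the spread between these libraries.

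Cells build glycans from sugars that have first been joined to a nucleotide. The hexosamine pathway turns fructose-6-phosphate into UDP-N-acetylglucosamine (UDP-GlcNAc), which feeds N-glycan branching, O-GlcNAc and sialic acid. UDP-GlcNAc becomes N-acetylmannosamine and then the sialic acid Neu5Ac in the cytosol, the nucleus joins Neu5Ac to CMP, and carriers of the SLC35 family bring CMP-sialic acid and the other nucleotide sugars into the Golgi or ER, where transferases use them. Sialidases remove sialic acid from glycans, and sialin exports it from the lysosome for reuse. Galactose, mannose and fucose have activation routes of their own that end in UDP-galactose, GDP-mannose and GDP-fucose. The study asked how the MYC level relates to the sialylated glycans on these leukemia cells, and these genes make or remove the sugar donors that such glycans need.

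Library totals ran from 18705516 to 39678799 counts, and replicates correlated at r = 0.998 to 0.999 on log2 CPM. Levels are given as CPM, each count as its part of 1000000 counts of the library, with library totals scaled by TMM factors between 0.976 and 1.03. The transgene row (hMYC) gave 1359, 1180.0 and 1263 CPM in the MYC on libraries, 438, 418 and 385 CPM with MYC intermediate and 4.11, 3.89 and 3.17 CPM with MYC off, so it fell with each dose and the groups did not overlap. Its log2 fold change was −1.61 ± 0.071 (SE) in MYC intermediate and −8.41 ± 0.10 in MYC off, each against MYC on. All 10 T cell markers examined (among them Cd3e, Lck and Cd4) had counts, and their summed level was 3720 to 3870 CPM in MYC on, 6100 to 6360 in MYC intermediate and 7940 to 8280 in MYC off, here relative to library totals without TMM factors. The B cell genes Cd79b, Ms4a1 and Pax5 were at 0 in all libraries, as were the myeloid genes Adgre1, Cd14 and Lyz2 and the NK cell genes Ncr1 and Nkg7. The 7 myeloid markers summed to 26.7 to 31.1, 32.8 to 36.0 and 41.1 to 44.8 CPM and the 4 NK markers to 3.85 to 4.01, 19.0 to 22.0 and 34.3 to 42.0 CPM in MYC on, intermediate and off, carried mainly by Csf1r and Itgam and by Gzma. The part of these T cell, myeloid and NK marker shifts in the results below was not tested. Every value is relative to the RNA in its library of cultured cells, so a change in the mix of cells and a change within each cell cannot be told apart.

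MYC with its partner MAX binds the E-box CACGTG, so the promoters of the genes were searched for these letters. RefSeq windows from 250 bases before to 50 after a transcription start (GRCm38.p6, both strands, the motif being its own reverse complement) were at hand for 32 of the 43 genes, and 4 of the 32 (12.5%) held CACGTG, against 8.09% of all 27025 genes with such a window. These were Slc35a5, Galk1, Galt and Npl. The motif was in the window of 1 of 9 genes called higher in MYC off (Slc35a5), 1 of 11 called lower (Galk1), 2 of 11 not called (Galt and Npl) and 0 of 1 not tested. The windows of the called genes with the motif are shown because they moved in opposite directions, with CACGTG in capitals. Slc35a5 holds the letters at 90 and 67 bases before the start (chr16:45158624-45158923, minus strand), and Galk1 at 17 bases before it (chr11:116012670-116012969, minus strand).
Slc35a5: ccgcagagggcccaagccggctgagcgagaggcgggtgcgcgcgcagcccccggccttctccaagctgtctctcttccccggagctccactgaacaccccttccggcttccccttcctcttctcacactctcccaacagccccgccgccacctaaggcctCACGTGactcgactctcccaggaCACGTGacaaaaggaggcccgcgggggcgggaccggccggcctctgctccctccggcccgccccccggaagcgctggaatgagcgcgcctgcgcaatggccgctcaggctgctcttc
Galk1: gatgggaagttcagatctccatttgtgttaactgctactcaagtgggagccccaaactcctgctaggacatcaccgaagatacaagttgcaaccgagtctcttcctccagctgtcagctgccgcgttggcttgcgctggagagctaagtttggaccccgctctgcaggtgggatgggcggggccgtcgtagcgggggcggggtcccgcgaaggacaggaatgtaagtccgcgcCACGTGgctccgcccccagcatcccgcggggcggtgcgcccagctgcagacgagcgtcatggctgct
A match of letters is a description of the window and says nothing of binding in these cells.

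Between MYC off and MYC on, 25 of the 41 tested genes passed the test (edgeR quasi-likelihood test, adjusted p under 0.01, Benjamini-Hochberg over all 14098 genes): 9 were higher and 16 lower in MYC off. That is 61.0%, against 54.9% of all genes tested (27.5% higher and 27.4% lower), so the share called lies near the background. The sizes were modest. The median absolute log2 fold change was 0.37, against 0.46 over all genes, and the log2 fold changes ran from −1.47 to 0.89. Only Gnpnat1 and Pgm3 moved by more than 1 on the log2 scale (4.88%, against 21.3% of all genes, or 19.5% that were also called), and none reached the log2 change of 1.5 that the study set for glycosylation genes, though Gnpnat1 ran from −1.54 to −1.40 over the alternatives. In 32 of the 41 genes the 3 MYC off libraries lay entirely above (11) or below (21) the 3 MYC on libraries, against 69.9% of all genes. The call was kept for 21 of the 25 genes under all 17 alternatives tried.

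**Figure D1:**
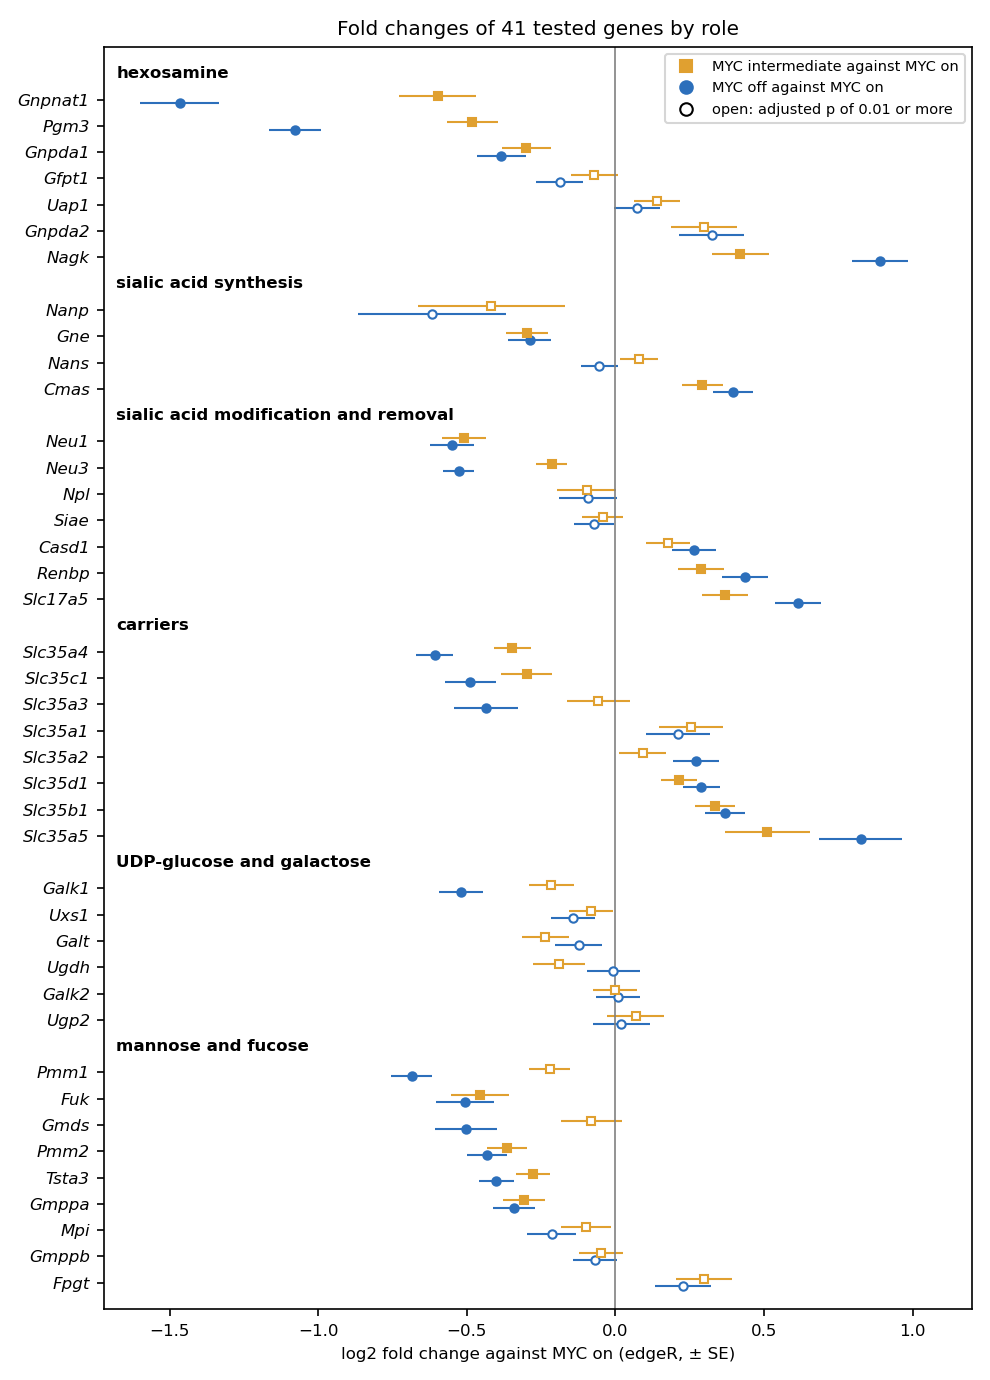
Log2 fold change (x axis, ± SE) of the 41 tested genes (y axis, by role) in MYC intermediate (squares) and MYC off (circles), each against MYC on; open symbols did not pass an adjusted p of 0.01. The hexosamine genes spread from −1.47 to 0.89 in MYC off, and 8 of the 9 mannose and fucose genes lie left of 0.

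**Figure D2:**
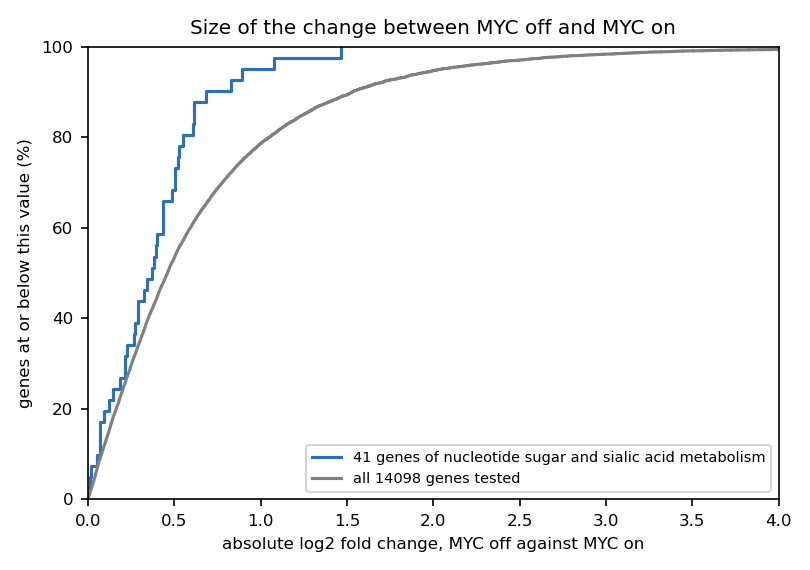
Share of genes (y axis, percent) with an absolute log2 fold change between MYC off and MYC on at or below the value on the x axis, for the 41 genes and for all 14098 genes tested; the axis ends at 4. The curve of the 41 genes reaches 100% at 1.47, and its median is 0.37 against 0.46 over all genes.

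The hexosamine genes held both of the changes over 1 on the log2 scale, the falls of Gnpnat1 and Pgm3 in MYC off, while the salvage kinase Nagk rose. Of 7 tested genes, Gnpnat1, Pgm3 and Gnpda1 were lower in MYC off, Nagk was higher, and Gfpt1, Uap1 and Gnpda2 did not pass. Gnpnat1, which acetylates glucosamine-6-phosphate (ENSMUSG00000037722.8, chr14:45376334-45404913, minus strand, mm10), had 20.2, 21.3 and 18.7 CPM in the MYC on libraries, 16.3, 11.4 and 11.8 CPM with MYC intermediate and 7.88, 7.27 and 6.55 CPM with MYC off. All MYC off libraries lay below all MYC intermediate libraries, and those below all MYC on libraries. The level was 2.77 times lower in MYC off than in MYC on, a log2 fold change of −1.47 ± 0.13 (SE, adjusted p = 1.18e-07). In the annotation 83.5% of its exon bases are also exon of Styx on the opposite strand, which had a mean of 9.30 CPM in MYC off and 25.1 CPM in MYC on (log2 fold change −1.42 ± 0.15). Since the library kit does not mark the strand and the strand setting of the counting is not given in the sources used here, reads of the 2 genes cannot be told apart. Pgm3, the mutase that makes GlcNAc-1-phosphate (chr9:86554377-86571842, minus strand), had 25.2, 27.4 and 25.2 CPM in the MYC on libraries, 17.5, 18.6 and 19.6 CPM with MYC intermediate and 12.7, 11.5 and 12.6 CPM with MYC off. The 3 groups again formed separate steps downward, with a log2 fold change of −1.08 ± 0.087 (SE, adjusted p = 2.78e-08) in MYC off. It shares 28.3% of its exon bases with Dop1a on the other strand, which was higher in MYC off (0.73 ± 0.076).

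Gfpt1, the amidotransferase that opens the pathway and limits its rate, stood at 48.6, 48.1 and 48.4 CPM in the MYC on libraries, 50.5, 45.3 and 42.3 CPM with MYC intermediate and 39.1, 44.7 and 43.7 CPM with MYC off. Its MYC off libraries lay below those of MYC on, but the change of −0.19 ± 0.08 (SE, adjusted p = 0.0503) did not pass. Gfpt2, its paralogue, had no count in 7 of the 9 libraries and 4 and 1 counts in MYC off replicates 2 and 3, where 3 counts correspond to 0.0756 to 0.160 CPM per library, so no fold is given. Uap1, which completes UDP-GlcNAc (chr1:170141938-170174957, minus strand), had 74.9, 70.8 and 64.6 CPM in the MYC on libraries, 76.3, 71.5 and 83.8 CPM with MYC intermediate and 74.0, 78.0 and 68.8 CPM with MYC off. Its groups overlapped, with a log2 fold change of 0.072 ± 0.077 (SE, adjusted p = 0.435). Nagk, the kinase that salvages free GlcNAc (chr6:83794982-83804018, plus strand), had 12.6, 12.3 and 11.2 CPM in the MYC on libraries, 14.9, 17.2 and 16.2 CPM with MYC intermediate and 21.9, 23.8 and 21.3 CPM with MYC off. The groups rose in separate steps, to 1.86 times the MYC on level in MYC off (a log2 difference of 0.89 ± 0.094 SE, adjusted p = 6.28e-07), the largest rise of the 41 genes in this fit. Gnpda1 and Gnpda2 deaminate glucosamine-6-phosphate and so run against the pathway: Gnpda1 was lower in MYC off (a log2 difference of −0.38 ± 0.083 SE, adjusted p = 0.000789), while Gnpda2 had 0.32 ± 0.11 (SE, adjusted p = 0.0181). The Gnpda2 libraries of MYC off all lay above those of MYC on, and with the replicate number as a block the gene passed (log2 fold change 0.32, adjusted p = 0.00485). Gnpda2 shares 14.9% of its exon bases with Guf1 on the other strand, which was lower in MYC off (−0.64 ± 0.076).

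**Figure D3:**
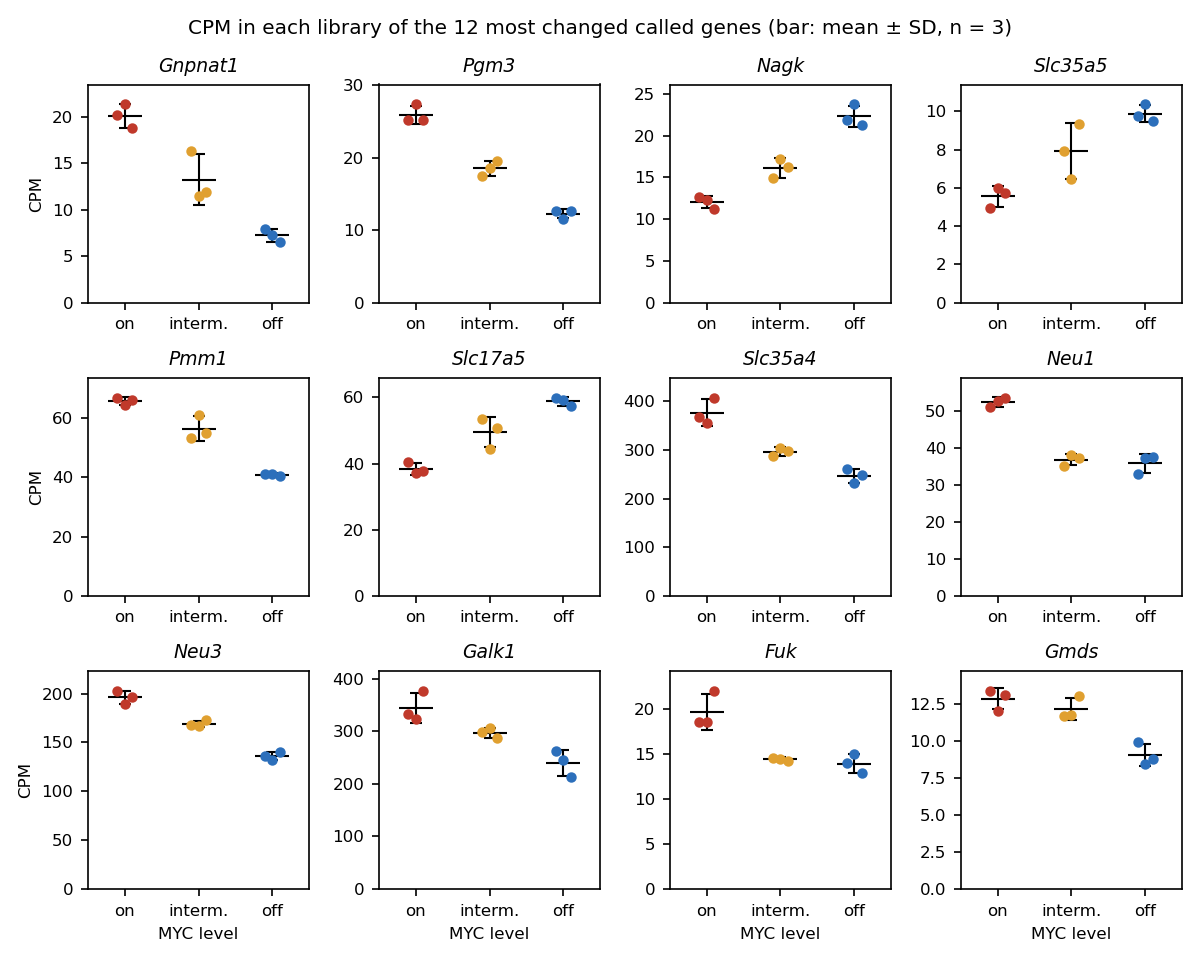
CPM (y axes, from 0) in each library for the 12 called genes with the largest absolute log2 fold change between MYC off and MYC on; the x axis gives the MYC level, points are libraries and bars the mean ± SD of 3. Gnpnat1, Pgm3 and Nagk form 3 separate steps, whereas the MYC intermediate and MYC off libraries of Neu1 and Fuk overlap.

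The 4 genes of sialic acid synthesis changed little and in both directions: Cmas rose, Gne fell, and Nans and Nanp did not pass. Gne, the epimerase and kinase that commits UDP-GlcNAc to sialic acid and limits its rate (ENSMUSG00000028479.18, chr4:44034075-44084177, minus strand), had 67.6, 65.3 and 66.4 CPM in the MYC on libraries, 49.8, 53.4 and 59.0 CPM with MYC intermediate and 56.8, 53.8 and 52.6 CPM with MYC off. All libraries with doxycycline lay below all MYC on libraries, and MYC intermediate and MYC off overlapped. The log2 fold change in MYC off was −0.29 ± 0.072 (SE, adjusted p = 0.0023), a level 1.22 times lower, and this call was lost when replicate 1 of MYC on, or replicate 2 or 3 of MYC off, was left out (log2 fold change −0.32 to −0.26 over all alternatives). Nans, which condenses ManNAc-6-phosphate with phosphoenolpyruvate, had 131, 122 and 123.0 CPM in the MYC on libraries, 127, 139 and 131 CPM with MYC intermediate and 129.9, 117 and 115 CPM with MYC off. The groups overlapped (a log2 difference of −0.054 ± 0.063 SE, adjusted p = 0.472), and 29.6% of its exon bases are shared with Trim14 on the other strand. Nanp, the phosphatase that follows, was scarce, at 1.38 ± 0.387 CPM in MYC off and 2.10 ± 0.425 CPM in MYC on (SD, n = 3 each), with a log2 fold change of −0.62 ± 0.25 (SE, adjusted p = 0.0405). Cmas, which couples sialic acid to CMP in the nucleus (chr6:142756686-142775714, plus strand), had 82.7, 74.5 and 75.0 CPM in the MYC on libraries, 99.1, 86.8 and 98.4 CPM with MYC intermediate and 106, 102 and 97.5 CPM with MYC off. MYC on lay below the other groups, which overlapped each other. In MYC off Cmas stood at 1.32 times the MYC on level (a log2 difference of 0.40 ± 0.069 SE, adjusted p = 0.000116).

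Among 7 genes that modify, recycle or remove sialic acid, both sialidases fell in MYC off, while Slc17a5, Renbp and Casd1 rose and Npl and Siae did not pass. Neu1, the lysosomal sialidase (ENSMUSG00000007038.5, chr17:34931253-34935953, plus strand), had 51.0, 52.6 and 53.6 CPM in the MYC on libraries, 35.1, 38.0 and 37.4 CPM with MYC intermediate and 32.9, 37.3 and 37.4 CPM with MYC off. Each library with doxycycline lay below each MYC on library, and the MYC off and MYC intermediate libraries overlapped. The log2 fold changes were −0.55 ± 0.074 (SE, adjusted p = 8.43e-06) in MYC off and −0.51 ± 0.074 (SE, adjusted p = 4.03e-05) in MYC intermediate. Neu3, the sialidase of the plasma membrane that prefers gangliosides (chr7:99811439-99828417, minus strand), had 203, 189 and 196 CPM in the MYC on libraries, 167, 167 and 173 CPM with MYC intermediate and 136, 132 and 139.8 CPM with MYC off. Here the 3 groups formed separate steps, down to 1.44 times lower in MYC off than in MYC on (a log2 difference of −0.53 ± 0.052 SE, adjusted p = 2.99e-07). Slc17a5 encodes sialin, the lysosomal exporter of sialic acid (chr9:78536488-78588041, minus strand), and gave 40.5, 37.2 and 37.7 CPM in the MYC on libraries, 53.4, 44.5 and 50.7 CPM with MYC intermediate and 60.0, 59.1 and 57.3 CPM with MYC off. Its groups rose without overlap, to 1.53 times the MYC on level in MYC off (a log2 difference of 0.61 ± 0.077 SE, adjusted p = 4.25e-06).

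Npl, the lyase that splits sialic acid into ManNAc and pyruvate, had 16.3, 15.9 and 14.2 CPM in the MYC on libraries, 14.6, 13.6 and 15.0 CPM with MYC intermediate and 14.02, 15.9 and 13.5 CPM with MYC off. The groups overlapped, with a log2 fold change of −0.092 ± 0.099 (SE, adjusted p = 0.433). Renbp, an epimerase between ManNAc and GlcNAc, averaged 53.0 ± 4.43 CPM in MYC off and 39.2 ± 0.734 CPM in MYC on (SD, n = 3 each, a log2 difference of 0.44 ± 0.078 SE, adjusted p = 0.000158). Casd1, which O-acetylates sialic acid, averaged 31.5 ± 0.274 CPM in MYC off and 26.3 ± 1.65 CPM in MYC on, while Siae, the esterase that removes such acetyl groups, averaged 77.3 ± 2.17 and 81.3 ± 4.62 CPM in MYC off and MYC on. Their log2 fold changes were 0.26 ± 0.075 (SE, adjusted p = 0.00578) and −0.072 ± 0.068 (SE, adjusted p = 0.373). The Casd1 call was lost with no filter on low counts, and when MYC on replicate 1 or 3 or any MYC off replicate was left out.

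Of 8 carriers tested 7 were called, against 54.9% of all genes, and in both directions: Slc35a5, Slc35b1, Slc35d1 and Slc35a2 were higher in MYC off and Slc35a4, Slc35c1 and Slc35a3 lower. Without MYC off replicate 2, 5 of the 7 calls were left, and the share of all genes called fell to 48.4%. Slc35a1, which carries CMP-sialic acid into the Golgi (ENSMUSG00000028293.14, chr4:34663257-34687438, minus strand), had 18.6, 21.4 and 18.5 CPM in the MYC on libraries, 25.0, 23.7 and 20.9 CPM with MYC intermediate and 25.4, 22.4 and 19.7 CPM with MYC off. The groups overlapped, and its log2 fold change of 0.21 ± 0.11 (SE, adjusted p = 0.0981) did not pass. Slc35a5 (chr16:45139573-45158706, minus strand), a member of the same subfamily and the least abundant of the 8, had 4.94, 5.99 and 5.75 CPM in the MYC on libraries, 7.95, 6.46 and 9.36 CPM with MYC intermediate and 9.76, 10.4 and 9.50 CPM with MYC off. All MYC off libraries lay above all others, the MYC intermediate libraries above those of MYC on, and the level in MYC off was 1.77 times that of MYC on (a log2 difference of 0.83 ± 0.14 SE, adjusted p = 9.13e-05). Slc35a4 (chr18:36679215-36683861, plus strand), the most abundant carrier here per length, had 368, 355 and 408 CPM in the MYC on libraries, 287, 305 and 298 CPM with MYC intermediate and 261, 233 and 249 CPM with MYC off. It fell in separate steps, to a level 1.52 times lower in MYC off than in MYC on (a log2 difference of −0.61 ± 0.062 SE, adjusted p = 4.43e-07). The Slc35a5 window printed above holds the E-box letters at 2 places.

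Slc35a2, the carrier of UDP-galactose, and Slc35a3, assigned to UDP-GlcNAc, went opposite ways in MYC off, with log2 fold changes of 0.27 ± 0.077 (SE, adjusted p = 0.00624) and −0.44 ± 0.11 (SE, adjusted p = 0.00218). The Slc35a2 call was lost with no filter and without MYC on replicate 1 or 2 or any MYC off replicate, and the Slc35a3 call without MYC off replicate 2. Slc35c1, which brings GDP-fucose into the Golgi, averaged 43.4 ± 2.76 CPM in MYC off and 60.9 ± 6.36 CPM in MYC on (SD, n = 3 each, a log2 difference of −0.49 ± 0.086 SE, adjusted p = 0.000123). Slc35d1, the ER carrier of UDP-glucuronic acid and UDP-GalNAc, averaged 182 ± 5.93 CPM in MYC off and 149 ± 8.48 CPM in MYC on, and Slc35b1, known in human cells as an ATP carrier of the ER, 54.1 ± 1.90 and 41.9 ± 1.42 CPM in the same order of groups. Their log2 fold changes were 0.29 ± 0.061 (SE, adjusted p = 0.000671) and 0.37 ± 0.067 (SE, adjusted p = 0.000172). Slc35d2 fell below the filter, with 2, 2 and 4 counts in the MYC on libraries, 2 counts in each MYC intermediate library and 11, 3 and 5 counts with MYC off, and no fold is given.

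In the UDP-glucose and galactose branch Galk1 alone passed, and it was lower in MYC off. That is 1 of 6 genes, against 54.9% of all genes called in either direction, a difference that was not tested. None of the 6 was called higher (27.5% of all genes were), by edgeR or DESeq2, and none had an unadjusted p under 0.05 with a higher level. Galk1, the galactokinase (ENSMUSG00000020766.4, chr11:116008457-116012719, minus strand), had 333, 323 and 377 CPM in the MYC on libraries, 298, 305 and 286 CPM with MYC intermediate and 262, 245 and 213 CPM with MYC off. The 3 groups did not overlap, and the log2 fold change in MYC off was −0.52 ± 0.075 (SE, adjusted p = 1.89e-05). The others had log2 fold changes of 0.019 for Ugp2, which makes UDP-glucose, −0.0068 for Ugdh, which oxidises it to UDP-glucuronic acid, −0.14 for Uxs1, the UDP-xylose synthase, and 0.01 for the GalNAc kinase Galk2. Galt, the uridylyltransferase after Galk1, had −0.12 ± 0.079 (SE, adjusted p = 0.183), and its MYC off libraries lay below those of MYC on.

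The mannose and fucose branch moved in 1 direction only among the genes called: 6 of 9 fell in MYC off, against 27.4% of all genes, and none rose by edgeR or DESeq2, while 1 gene (Fpgt) was higher at an unadjusted p under 0.05. The median log2 fold change of the 9 was −0.40, against 0.029 over all genes. Pmm1, a phosphomannomutase (ENSMUSG00000022474.14, chr15:81951108-81960930, minus strand), had 66.9, 64.2 and 66.2 CPM in the MYC on libraries, 53.3, 61.0 and 55.0 CPM with MYC intermediate and 41.1, 41.1 and 40.3 CPM with MYC off. Its groups did not overlap, and the MYC off level was 1.61 times lower than that of MYC on (a log2 difference of −0.69 ± 0.068 SE, adjusted p = 2.98e-07). Gmds, the dehydratase that starts the route from GDP-mannose to GDP-fucose (chr13:31819579-32338740, minus strand), had 13.4, 12.03 and 13.1 CPM in the MYC on libraries, 11.7, 11.7 and 13.0 CPM with MYC intermediate and 9.89, 8.46 and 8.76 CPM with MYC off. MYC off lay below the other groups, which overlapped each other (a log2 difference of −0.50 ± 0.10 SE, adjusted p = 0.000538 against MYC on). Fuk, the kinase that salvages free fucose (chr8:110882456-110902488, minus strand), had 18.5, 18.6 and 21.97 CPM in the MYC on libraries, 14.6, 14.4 and 14.2 CPM with MYC intermediate and 13.9, 14.9 and 12.9 CPM with MYC off. All libraries with doxycycline lay below those of MYC on, with −0.51 ± 0.097 (SE, adjusted p = 0.000291) in MYC off.

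Tsta3, which completes GDP-fucose after Gmds, also fell in MYC off (a log2 difference of −0.40 ± 0.058 SE, adjusted p = 1.88e-05), as did Pmm2, the other phosphomannomutase (a log2 difference of −0.43 ± 0.067 SE, adjusted p = 3.87e-05), and Gmppa, the regulatory partner of GDP-mannose pyrophosphorylase (a log2 difference of −0.34 ± 0.07 SE, adjusted p = 0.000514). The catalytic partner Gmppb had −0.068 ± 0.074 (SE, adjusted p = 0.439), with 33.6% of its exon bases shared with Rnf123 and Gm20529. Mpi, the isomerase between fructose-6-phosphate and mannose-6-phosphate, had −0.22 ± 0.084 (SE, adjusted p = 0.0343), and Fpgt, the guanylyltransferase after Fuk, had 0.23 ± 0.093 (SE, adjusted p = 0.0438). All 3 MYC off libraries lay below those of MYC on for Mpi and above them for Fpgt.

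At 20 pg/mL doxycycline, 19 of the 41 genes differed from MYC on (46.3%, against 34.6% of all genes), 7 higher and 12 lower (17.4% and 17.2% of all genes). The genes with the largest differences were Gnpnat1 (a log2 difference of −0.60 ± 0.13 SE, adjusted p = 0.00137), Neu1 and Slc35a5 (a log2 difference of 0.51 ± 0.14 SE, adjusted p = 0.00834). In 26 genes the 3 MYC intermediate libraries did not overlap those of MYC on (10 above, 16 below), against 53.5% of all genes. The count of 19 calls rested on single libraries: without MYC on replicate 3, 8 of the 19 calls were left, or 19.5% of the 41 genes against 28.6% of all genes, so the share of these genes then lay below that of all genes and not above it. The 8 are Gnpnat1, Pgm3, Neu1, Slc17a5, Slc35a4, Slc35b1, Pmm2 and Tsta3, and they passed under every alternative. The 11 lost are Gnpda1, Nagk, Gne, Cmas, Renbp, Neu3, Slc35a5, Slc35c1, Slc35d1, Gmppa and Fuk, of which all but Gmppa and Fuk were also lost on leaving out another library.

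Between MYC off and MYC intermediate, 8 of the 41 genes differed (19.5%, against 24.7% of all genes), 1 higher and 7 lower (9.95% and 14.7% of all genes). Nagk was higher in MYC off (a log2 difference of 0.47 ± 0.091 SE, adjusted p = 0.000807), and Gnpnat1 (a log2 difference of −0.87 ± 0.13 SE, adjusted p = 0.000125), Pgm3, Neu3, Pmm1 (a log2 difference of −0.46 ± 0.068 SE, adjusted p = 7.11e-05), Slc35a4, Galk1 and Gmds (a log2 difference of −0.42 ± 0.10 SE, adjusted p = 0.00448) were lower. The 3 MYC off libraries did not overlap those of MYC intermediate in 16 genes, against 46.5% of all genes. Leaving out replicate 2 of MYC intermediate, or replicate 2 or 3 of MYC off, left 5 calls, since Slc35a4, Galk1 and Gmds no longer passed. The share of all genes called also fell in these settings, from 24.7% to 19.7%, 17.4% and 17.4% in the same order. Galk1 was lost also without MYC intermediate replicate 1, and Gmds without MYC intermediate replicate 3 or with the counts thinned to the smallest library total.

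Of the 25 genes called between MYC off and MYC on, 5 passed at both dose steps (Gnpnat1, Pgm3, Nagk, Neu3 and Slc35a4), 14 at the MYC intermediate step against MYC on alone, 3 at the step of MYC off against MYC intermediate alone (Galk1, Pmm1 and Gmds) and 3 at neither (Casd1, Slc35a2 and Slc35a3). Both steps share the MYC intermediate libraries. The share of the log2 change that was present at MYC intermediate had a median of 61.8% over the 25 genes, beside 56.7% over all 7734 genes called, and ran from 13.2% for Slc35a3 and 16.1% for Gmds to 93.1% for Neu1 and 103.0% for Gne. For the transgene it was 19.2%. The test of the steps against each other sets MYC intermediate against the log2 midpoint of the other groups. It called none of the 41 genes by edgeR or DESeq2, against 1.89% of all genes by edgeR (1.7% higher and 0.184% lower). At an unadjusted p under 0.05 in the edgeR test were 9 of the 41 genes, 2 higher and 7 lower than the midpoint. The share of all genes at this unadjusted level was not counted, so the 9 cannot be called many or few. Among the 9, Neu1 had the smallest adjusted p (−0.24, adjusted p = 0.0472). The steps of these genes were therefore not shown to differ in size.

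In all, 6 pairs of genes with like roles were compared as ratios of counts within each library, which do not depend on depth or scaling. The ratios can depend on reads shared with overlapping genes, such as Guf1 for Gnpda2, and this was not tested. The log2 ratio of Gnpda1 to Gnpda2 was −0.19, −0.24 and −0.11 in MYC off and 0.40, 0.43 and 0.75 in MYC on, so Gnpda1 took 46.9% of the counts of the pair in MYC off and 59.0% in MYC on. The ratio of Slc35a2 to Slc35a3 was 0.95, 1.12 and 0.98 in MYC off and 0.24, 0.18 and 0.48 in MYC on, a shift of 0.71 toward the UDP-galactose carrier. Galk1 to Galk2 shifted by −0.53, Gmppa to Gmppb by −0.28 and Pmm1 to Pmm2 by −0.25. The Pmm1 to Pmm2 ratio did not move in steps: it was 0.043, −0.014 and 0.02 in MYC on, higher at 0.16, 0.21 and 0.10 in MYC intermediate and lower at −0.15, −0.24 and −0.32 in MYC off. In these 5 pairs MYC off and MYC on did not overlap, and the exact two-sided permutation test gave p = 0.1, the smallest that 3 against 3 libraries allow (0.12 adjusted over the 6 pairs). The ratio of Neu1 to Neu3 overlapped, at −2.05, −1.82 and −1.90 in MYC off and −1.99, −1.84 and −1.87 in MYC on (difference −0.023, exact permutation p = 0.7). In MYC intermediate it was −2.25, −2.13 and −2.21, below both other groups. Gfpt2 and Slc35d2 had too few counts for a ratio to Gfpt1 and Slc35d1.

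**Figure D4:**
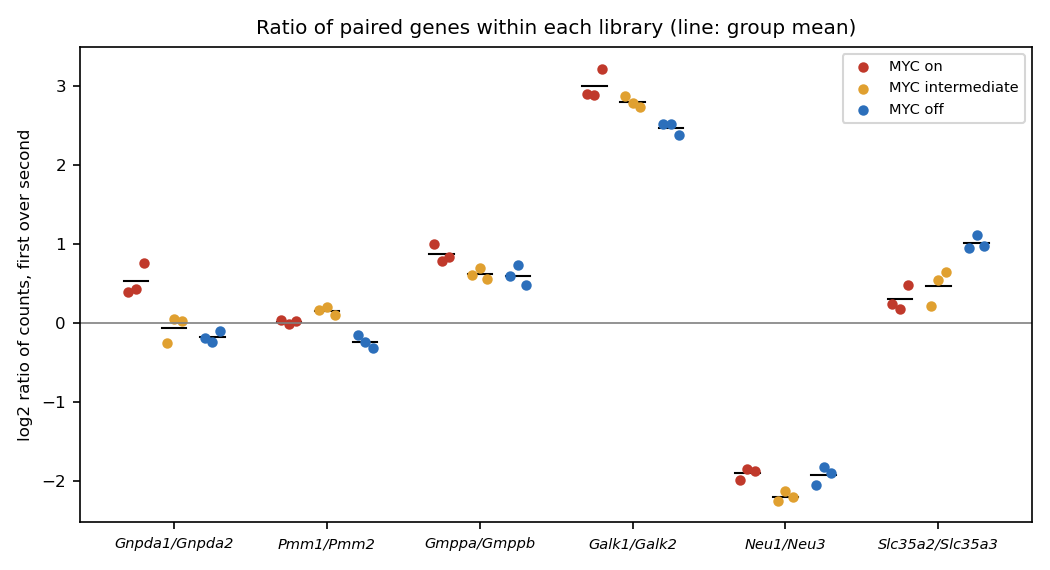
Log2 ratio of counts (y axis, first gene over second) within each library for 6 pairs of genes with like roles (x axis); points are libraries colored by group, lines group means. MYC off lies apart from MYC on in 5 pairs, and in Neu1/Neu3 both lie above MYC intermediate.

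Levels of different genes were compared by the deposited TPM, which are scaled for gene length and depth. Galk1 was the most abundant of the 43 in each group, at 819 ± 62.1 TPM in MYC on, 690.0 ± 21.0 in MYC intermediate and 581 ± 45.7 in MYC off (SD, n = 3 each). Slc35a4 had 386 ± 24.9, 297 ± 16.1 and 257 ± 9.95 TPM and Tsta3 336 ± 6.96, 272 ± 19.9 and 259.5 ± 5.44 TPM in the same groups. These neighbours lay within their spread of each other in MYC off. For Tsta3 the deposited table used a length of 1311 bases, against 2906 exon bases in the annotation used here, and its TPM depends on that choice. Neu3 followed with 196 ± 3.70, 166 ± 7.75 and 139 ± 6.51 TPM. At the other end, Gfpt2, Slc35d2, Slc35a5 and Nanp had under 5 TPM on average in each group. Pmm1 ranked 15 in MYC off and 7 in MYC on, and Gnpnat1 ranked 39 in MYC off and 33 in MYC on.

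A wider set of 34 genes next to these routes (hexose phosphates, further SLC35 carriers, sulfate donors, lysosomal glycosidases and dolichol-phosphate sugar enzymes) was counted for comparison. Of 30 tested, 10 were higher and 9 lower in MYC off than in MYC on, near the 27.5% and 27.4% of all genes. The 6 called genes with the largest absolute log2 fold change and a mean of at least 5 CPM in a group are given. Pgm1, which interconverts glucose phosphates, had 49.2 CPM on average in MYC off and 126 CPM in MYC on (a log2 difference of −1.35 ± 0.08 SE, adjusted p = 6.82e-10), and Hk2, a hexokinase, 12.1 CPM on average in MYC off and 27.4 CPM in MYC on (a log2 difference of −1.19 ± 0.15 SE, adjusted p = 3.4e-06). Slc35c2, a carrier tied to fucosylation, had 35.8 CPM on average in MYC off and 77.4 CPM in MYC on (a log2 difference of −1.11 ± 0.068 SE, adjusted p = 8.93e-10), and Nagpa, which uncovers mannose-6-phosphate, 24.3 CPM on average in MYC off and 48.1 CPM in MYC on (a log2 difference of −0.99 ± 0.085 SE, adjusted p = 5.76e-08). Uap1l1, a relative of Uap1, had 5.23 CPM on average in MYC off and 8.99 CPM in MYC on (a log2 difference of −0.78 ± 0.12 SE, adjusted p = 4.45e-05), while Papss2, which makes the sulfate donor PAPS, had 92.4 CPM on average in MYC off and 45.9 CPM in MYC on (a log2 difference of 1.01 ± 0.065 SE, adjusted p = 1.9e-09). The sialidases Neu2 and Neu4 had no count in any library, so Neu1 and Neu3 were the members of that family with counts.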

How the data were processed

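Polyadenylated RNA was copied with oligo(dT) priming (SMART-Seq v4) and made into Nextera XT libraries, which do not mark the strand. Per the submitters' processing notes, the tools were cutadapt 1.16, STAR 2.5.4b and featureCounts on the mm10 build. The annotation release and the strand setting are not given in the sources used here. The authors deposited 1 table per library with whole-number counts per gene. The same deposited tables hold a score (counts per kilobase), FPKM (that score over a total 2.23 to 2.30 times the summed counts), TPM and a fraction giving each gene's rank in its library. Tests used the counts and levels per length the TPM, and the other columns served only to check the files. GENCODE M21 (mm10) matched 53274 of 53380 identifiers and gave positions and exons, and promoters came from RefSeq (GRCm38.p6).

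Counts were tested with the quasi-likelihood test of edgeR 4.0.16 in R 4.3.3 (TMM, default count filter, all 9 libraries in 1 fit, group as the only term, two-sided). The SE of a log2 fold change is its absolute value over the square root of the F value of that test, not a separate estimate. DESeq2 1.42.0, other scalings and filters, thinned counts, a replicate block and each library left out were alternatives. The edgeR test alone was also run on simulated counts. Far fewer genes changed there than were called here, so that run does not measure the rate of false calls in these data. Named genes were 9 fixed by role and the 12 called ones with the largest change. The genes, roles and lists were chosen with earlier results of these data known. Replicate pairs differed by more than sampling noise (chi-square over degrees of freedom 4.45 to 21.1). Over 9897 genes, deviations from the group means correlated between same-numbered MYC off and MYC on libraries (r = 0.38, 0.26 and 0.22 for replicates 1 to 3). The numbers were therefore tried as a block, a pairing read from the tested data and not given by the labels. Differently numbered MYC off and MYC on libraries had r = −0.39 to 0.15. A correlation as high also occurred between different numbers, at r = 0.39 for MYC intermediate replicate 2 and MYC on replicate 3. At totals of 18705516 to 39678799 counts, 3 counts equal 0.0756 to 0.160 CPM, and this floor covers counting error only.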

Additional observations from a re-analysis of the deposited data

How the results depend on the processing

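No named gene changed direction past the threshold under the 17 alternatives. Between MYC off and MYC on, 23 to 26 genes were called over the alternatives with all libraries and 21 to 26 (7 to 10 higher, 14 to 16 lower) with 1 library left out. Between MYC intermediate and MYC on the ranges were 16 to 19 and 8 to 18 (2 to 7 higher, 6 to 11 lower), with 4 higher in place of 7 under RLE factors, and between MYC off and MYC intermediate 8 to 10 and 5 to 8 (1 to 2 higher, 4 to 7 lower). The share of all genes called moved as well. For MYC off against MYC on it was 31.8% to 60.5% with all libraries and 47.6% to 55.9% with 1 left out. The ends of the first range were 8070 of 25367 genes tested with no filter and 7484 of 12380 with a CPM of 1 in 3 libraries. The number of genes tested thus differed more than the number called. For MYC intermediate against MYC on these shares were 20.7% to 39.4% and 27.9% to 34.7%. For MYC off against MYC intermediate they were 15.5% to 29.5% and 17.4% to 23.4%. The midpoint test called none of the genes throughout, while over all genes it called 266, against 850 with no filter, 484 by DESeq2, 430 with the replicate block and 122 to 386 with 1 library left out. Neighbouring genes gave 17 to 20 calls with 1 library left out (9 to 10 higher, 8 to 10 lower). Apart from the number of genes tested, the causes of these shifts were not tested.

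With the replicate number as a block, 26 genes were called between MYC off and MYC on (Gnpda2 was added), 19 between MYC intermediate and MYC on, and 10 between MYC off and MYC intermediate, where Slc17a5 (0.25, adjusted p = 0.00995) and Slc35a3 (−0.37, adjusted p = 0.00419) were added and 2 rather than 1 were higher, as also with library size alone. The block changed no other call. Numbers of MYC intermediate did not pair with MYC on (r = 0.13, −0.19 and −0.17) or with MYC off (0.37, 0.03 and 0.08). The block covered all 9 libraries, so its calls between MYC off and MYC intermediate rest on numbers that did not pair. The shifts in log2 ratio of gene pairs kept their direction with 1 library left out, from −0.77 to −0.59 for Gnpda1/Gnpda2, −0.30 to −0.21 for Pmm1/Pmm2, −0.34 to −0.21 for Gmppa/Gmppb, −0.58 to −0.42 for Galk1/Galk2 and 0.65 to 0.81 for Slc35a2/Slc35a3, except Neu1/Neu3 (−0.074 to 0.04). Gfpt2 and Slc35d2 were below the count filter, and with no filter neither was called between MYC off and MYC on (adjusted p = 0.194 and 0.606).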
